A study of Mus musculus with 4 samples.

Results

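Type I interferon-stimulated genes are genes that cells switch on when an interferon binds its receptor. A list of 42 of them was followed across mouse liver mononuclear cells. The list was given by symbol, and all 42 were found among the 31053 genes of the count matrices, each with at least 1 UMI (a tagged RNA molecule) in all 4 libraries. The 4 libraries, 1 per condition, were made with a droplet single-cell assay that reads the 5′ end of transcripts. Naïve mice are known by that label only, and the methods do not say whether they received vehicle injections. ConA+Veh mice received concanavalin A (ConA), a plant lectin that activates T cells and injures the liver, followed by vehicle. ConA+TCDD mice received ConA and then TCDD, and ConA+FICZ mice received ConA and FICZ. TCDD and FICZ both bind the aryl hydrocarbon receptor (AhR), a ligand-activated transcription factor. All mice were C57BL/6 of 8 to 10 weeks, and for ConA+Veh and ConA+TCDD the study's methods place collection 24 h after ConA. The methods used here describe neither the FICZ treatment nor how many mice went into a library. With 1 library per condition no ratio below has a replicate check and no test was made. Intervals are 95% intervals that cover counting error only, and the condition of a library cannot be told apart from the library itself. C57BL/6 mice carry a defective *Mx1* allele, so that its RNA does not stand for a working MX1 protein.

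Type I interferons (many alpha forms, 1 beta form) bind a receptor made of IFNAR1 and IFNAR2. Through the kinases JAK1 and TYK2 the signal reaches a complex that holds IRF9 and binds the interferon-stimulated response element upstream of the target genes. Their products block viruses in many ways: ISG15 is a ubiquitin-like tag that USP18 removes, IFIT proteins bind foreign RNA, OAS enzymes start RNA breakdown, RIG-I (*Ddx58*), MDA5 (*Ifih1*), LGP2 (*Dhx58*) and ZBP1 sense foreign nucleic acid, IFITM proteins block viral entry, and IRF7 amplifies interferon production. Interferon gamma, from T and NK cells, acts through another receptor and shares some of these targets.

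Promoter windows of 300 bases, from 250 before to 50 after the start, were matched by symbol in the RefSeq set (GRCm38.p6). A window was found for 31 of the 42 genes, 37 windows in all, and none was matched for *Mx1*, *Ifi27l2a*, *Ly6a*, *Ly6e*, *Zbp1*, *Rtp4*, *Parp14*, *Usp18*, *Oas2*, *Dhx58* and *Parp9*. The core of the response element was searched as GAAA, any 2 bases, GAAA on either strand, which reads as TTTC, any 2 bases, TTTC when it lies on the other strand. It was present in 16 of the 37 windows, 43.2%, against 3.44% of 32851 windows of all genes. The gamma-activated site, an element of genes that respond to interferon gamma, searched as TTC, any 3 bases, GAA, was in 21.6% of the windows of the list and 8.30% of all. A match is a run of letters and not a measured site. Stretches are shown for 5 genes whose levels are described below, read 5′ to 3′ on the strand of the gene, with the letters of the match in capitals. They lie upstream of the start, on GRCm38.
*Isg15*, chr4:156200860-156200911, minus strand: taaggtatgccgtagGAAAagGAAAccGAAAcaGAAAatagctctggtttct
*Ifit1*, chr19:34640770-34640828, plus strand: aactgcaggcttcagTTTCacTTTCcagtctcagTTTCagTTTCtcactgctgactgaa
*Ifit3*, chr19:34583358-34583431, plus strand: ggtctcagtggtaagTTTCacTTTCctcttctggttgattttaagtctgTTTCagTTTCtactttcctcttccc
*Rsad2*, chr12:26456548-26456587, minus strand: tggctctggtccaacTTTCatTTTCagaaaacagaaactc
*Oas3*, chr5:120777710-120777749, minus strand: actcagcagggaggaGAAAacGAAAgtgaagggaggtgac
In *Isg15*, 3 matches overlap in a row, in *Ifit1* and *Ifit3* there are 2 separate matches, and in *Rsad2* and *Oas3* there is 1. The genes themselves are spread over 15 chromosomes, with 7 on chromosome 11 and 6 on chromosome 7. *Isg15* lies at chr4:156199424-156200818 and *Ly6a* at chr15:74994877-74998031, and all 42 are annotated as protein-coding.

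The Naïve library held 2086 cells, the vehicle library 2779, that of TCDD 1880 and that of FICZ 2555, with 5952445, 19252211, 12077209 and 16017797 UMIs. Between 80.9% and 92.5% of cells per library could be placed in 1 of 10 classes by marker genes, none of which is on the list: a cell needed UMIs of at least 2 of the 8 markers of a class and of more of them than of any other class. Such a class is called a gate here. The T gate held 502, 823, 705 and 560 cells, the B gate 1093, 855, 429 and 803, the NK gate 146, 261, 196 and 183 and the mononuclear phagocyte gate 66, 233, 40 and 213, always with Naïve first and then vehicle, TCDD and FICZ. Depth differed: the median UMIs of a T-gate cell were 2724, 6989, 6012 and 8800.5. Pairs of libraries shared 4 to 15 cell barcodes, and leaving out those cells moved no summed ratio beyond its counting interval. Doublets were not removed. Levels below are UMIs per 1000000 UMIs of the gate (CPM), and the kit counts 5′ ends, so that they do not scale with gene length. A change in RNA per cell moves all CPM values, and the mean UMI per cell is therefore given beside many of them. In log2, the ratio of mean UMI per cell differs from that of CPM by the same amount for all genes of a gate. That amount is the ratio of mean depth, and no share of all genes is given on that scale.

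In most cell classes the summed level of the 42 genes was higher in ConA+Veh than in Naïve, lower in ConA+TCDD than in ConA+Veh, and close to ConA+Veh in ConA+FICZ. It was 5752 CPM in Naïve, 10544 in ConA+Veh, 8149 in ConA+TCDD and 9813 in ConA+FICZ in the B gate. For NK cells it was 3218, 6019, 4725 and 5988 CPM, and for T cells 4085, 4965, 3934 and 4852 CPM. In these lymphocytes the ConA+Veh library was the highest (in NK cells with ConA+FICZ inside its interval of 5864 to 6178) and Naïve or, for T cells, ConA+TCDD the lowest. Mononuclear phagocytes stood higher throughout, at 17887, 21789, 19192 and 22838 CPM, with ConA+FICZ on top. As log2 ratios of ConA+Veh over Naïve these are 0.87 (0.85 to 0.90) in B, 0.90 (0.80 to 1.01) in NK, 0.28 (0.25 to 0.32) in T and 0.28 in phagocytes. As the mean of each cell's own CPM the last pair became 0.60 and 0.44. The ratio of ConA+TCDD over ConA+Veh was −0.37, −0.35, −0.34 and −0.18 in B, NK, T and phagocyte gates, and that of ConA+FICZ over ConA+Veh was −0.10, −0.01, −0.03 and 0.07. Without cells holding at least 2 markers of another class the phagocyte ratio of ConA+TCDD was −0.0234. As mean UMI per cell the ratios over Naïve were 2.09, 1.79, 1.83 and 0.85 in B, NK, T and phagocyte gates, those of ConA+TCDD −0.54, −0.44, −0.53 and 0.0867 and those of ConA+FICZ −0.16, −0.22, 0.14 and −0.10, so that 3 of these 12 changed sign. Both AhR ligand comparisons share the ConA+Veh library.

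**Figure D1:**
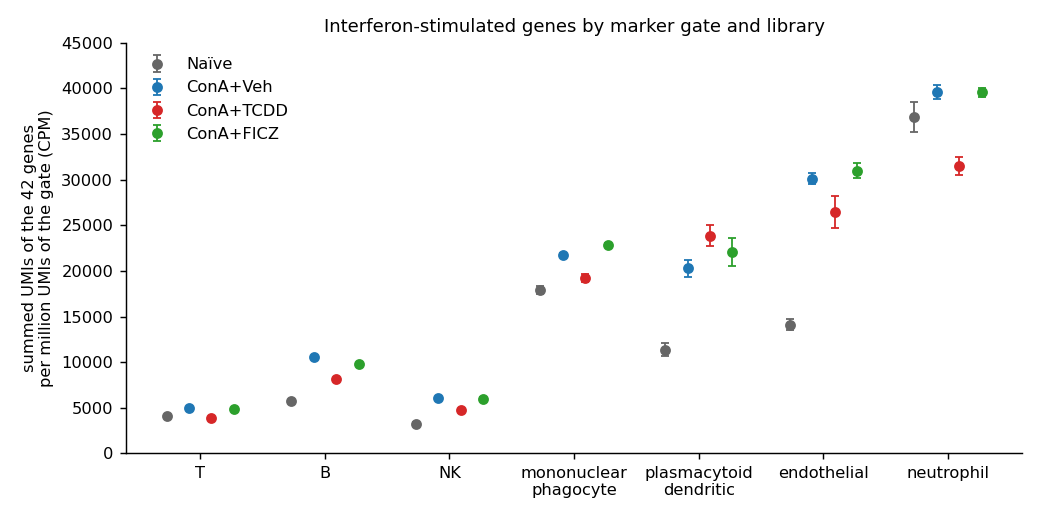
Summed CPM of the 42 interferon-stimulated genes by gate for the 4 libraries, on the axis given in CPM, with 95% Poisson intervals. The T, B and NK values of ConA+TCDD lie below those of ConA+Veh, as at 8149 against 10544 CPM in the B gate.

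A few genes carry much of this sum. *Ly6e*, *Ly6a* and *Ifi27l2a* gave 17.8%, 17.5% and 13.8% of all UMIs of the list. LY6A (Sca-1) and LY6E are lipid-anchored surface proteins, and IFI27L2A is a small membrane protein. Without them the T-gate ratio of ConA+Veh over Naïve was −0.32, but 1.23 as mean UMI per cell, while the B-gate ratio was 0.73 and that of NK cells 0.53.

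Among the T, B, NK and phagocyte gates, B cells had the most genes at least 2-fold higher in ConA+Veh than in Naïve. Of the 42 genes, 38 had at least 50 UMIs in both libraries together, the minimum used for every ratio of a single gene, and 16 of them were at least 2-fold higher in ConA+Veh and 0 lower. Over all 8022 genes past that minimum 6.71% were 2-fold higher and 16.1% lower, and the median log2 ratio was −0.25, against 0.71 for the list. A gene that reaches the minimum only through the library where it is high has to show a ratio, so that these counts describe and do not test.

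Summed by role, *Isg15* with *Usp18* had 2.36 in B cells, the OAS genes 0.78 and the IFIT genes 0.22. *Isg15*, the ubiquitin-like tag, stood at 25.8 CPM in Naïve, 170 in ConA+Veh, 107 in ConA+TCDD and 172 in ConA+FICZ, a log2 ratio of 2.72 (2.37 to 3.09). *Oas3*, an enzyme that makes the messenger for RNA breakdown, stood at 4.0, 18.5, 6.30 and 20.2 CPM. Both were lowest in Naïve, intermediate in ConA+TCDD and highest in ConA+Veh and ConA+FICZ. *Zbp1*, the sensor of Z-form nucleic acid, was at 40.4, 174, 134 and 184 CPM, although 82 of its 868 UMIs in ConA+Veh came from 1 cell. *Isg20*, an RNA exonuclease, was at 18.9, 61.4, 34.2 and 55.4 CPM.

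The genes of surface proteins were also lowest in Naïve. *Ly6a* in the B gate was at 532, 2264, 1952 and 2012 CPM, and *Bst2*, which encodes the virus-tethering protein tetherin, at 117, 426, 358 and 424 CPM. *Ifi27l2a* was the most abundant of the list in B cells of ConA+Veh, at 831, 3105, 2132 and 2689 CPM. *Ly6e* did not follow, with 2634 CPM in Naïve and 2264 in ConA+Veh, a log2 ratio of −0.22 that becomes 1.0 as mean UMI per cell. *Ifi203*, a DNA-binding member of the p200 family whose near copies *Mndal* and *Ifi204* may share its reads, had −0.33, and 0.88 per cell. *Ddx58* (RIG-I) had −0.34. Per cell all 38 genes were higher in ConA+Veh, where the median UMIs of a B-gate cell were 4205 against 2135 in Naïve. The depth shift, which took the summed B ratio from 0.87 to 2.09, is larger in size than the lowest CPM ratio, −0.34. The per-cell count thus follows from depth, and it has no share of all genes beside it.

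Genes of the IFITM family had the highest B-gate ratios, and their source was not tested. *Ifitm3* was at 17.5 CPM in Naïve and 130 in ConA+Veh (2.89), and *Ifitm1* at 0.364 and 33.9 (6.54). The latter is 1 UMI against 169, of which 95 came from 1 cell, and after cells with at least 2 markers of another class had been left out it was 4.05. Myeloid RNA in the B gate differed between libraries too, but not all in the same order. The neutrophil transcript *S100a8* was at 12.4, 95.7, 10.3 and 57.8 CPM, and the summed granulocyte-progenitor markers at 0, 57.2, 6.30 and 1.11 CPM. *S100a9* was at 12.4, 71.6, 4.05 and 109 CPM and the summed neutrophil markers at 6.55, 18.3, 11.2 and 31.7. The last pair was highest in ConA+FICZ, where *Ifitm1* and *Ifitm3* were lower than in ConA+Veh. *S100a8* and the progenitor markers were highest in ConA+Veh, as were *Ifitm1* and *Ifitm3*. *Ifitm1* and *Ifitm3* are abundant in the mononuclear phagocyte gate, where *Ifitm3* reached 5727 CPM in ConA+Veh. In granulocyte progenitors of ConA+Veh, *Ifitm1* was at 1994 CPM and *Ifitm3* at 3074.

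**Figure D2:**
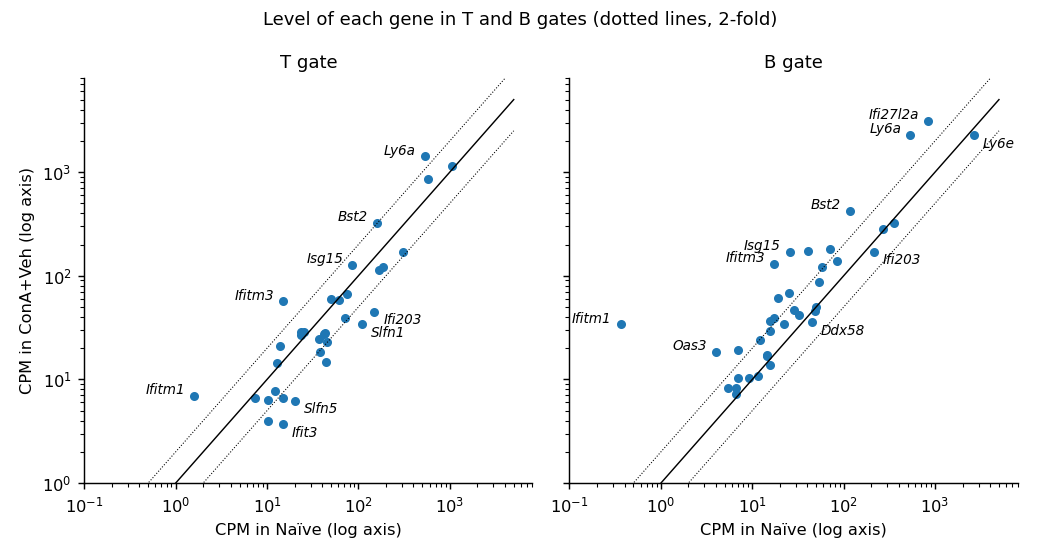
CPM of each gene in Naïve (x axis, log) and ConA+Veh (y axis, log) for T and B gates, with the line of equal level solid and 2-fold lines dotted. In the B gate 30 of 38 genes with a ratio lie above the line, against 38.1% of all genes past the minimum. In the T gate 13 of 34 do, against 44.7%, and only *Bst2*, *Ly6a*, *Ifitm1* and *Ifitm3* lie above the upper dotted line there.

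T cells had ratios of both signs. Of 34 genes past the minimum, 4 were at least 2-fold higher in ConA+Veh than in Naïve and 8 lower, where 8.74% and 12.3% of all 8734 genes were, and the median was −0.58 against −0.10 for all genes. With a minimum of 100 UMIs, 4 genes were lower. The higher 4 were *Ly6a*, at 535 CPM in Naïve and 1416 in ConA+Veh (1.40, 1.31 to 1.5), *Bst2*, at 160 and 322, *Ifitm3*, at 14.95 and 56.5, and *Ifitm1*, at 1.60 and 6.91. The *Ifitm1* ratio of 2.11 was 0.02 when cells with markers of another class were left out, and 24 of its 62 ConA+Veh UMIs lay in 1 cell. For *Ifitm3*, 18 of the 28 Naïve UMIs lay in 1 cell, and the ratio without the richest cell of each library was 3.14.

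The lower 8 were *Ifit3*, *Ifit1*, *Ifi203*, *Ddx58*, *Ifih1*, *Slfn1*, *Slfn5* and *Rtp4*. *Ifit3* was at 14.95 CPM in Naïve and 3.68, 2.98 and 4.50 in the ConA libraries (−2.02, −2.79 to −1.24), with 28 and 33 UMIs behind the first pair, and its near copy *Ifit3b* may share reads. *Ifi203* was at 148, 45.2, 33.4 and 49.9 CPM, and *Ddx58* at 43.8, 14.7, 9.53 and 16.3. These were highest in Naïve and lowest in ConA+TCDD. *Slfn1* and *Slfn5*, of a family named for effects on T cell growth and tied to quiescence, were at 110 and 20.3 CPM in Naïve and 34.0 and 6.24 in ConA+Veh. *Ifih1* (MDA5), *Ifit1* and *Rtp4*, a chaperone of receptors, had −1.34, −1.16 and −1.05. Other sensors had higher levels in ConA+Veh, with *Zbp1* at 0.28 and *Eif2ak2*, the kinase PKR, at 0.61, as had *Isg15* (0.57).

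The sign depends on the scale. T-gate cells of ConA+Veh held more UMIs, and as mean UMI per cell 29 of the 34 genes were higher, with a median of 0.97. Depth raises all genes of the gate by the same amount on that scale. The list median therefore stays below that of all genes, as by CPM (−0.58 against −0.10). Of the 8 genes with lower CPM, 5 were lower also per cell, while *Ifih1*, *Ifit1* and *Rtp4* were higher. The depth shift, which took the summed T ratio from 0.28 to 1.83, left the 5 nearer to equal levels. For *Ifit3*, the lowest, the counting interval moved by that shift spans equal levels. The same holds for the rest of the 5, so that none of them is shown to be lower per cell. The proliferation gene *Mki67* was at 45.4 CPM in Naïve, 317 in ConA+Veh, 209 in ConA+TCDD and 147 in ConA+FICZ, the deepest library of this gate. Its part in the ratios was not tested. *Ifi203* was lower by CPM in CD8 T cells (−1.82) and in CD4 T cells (−1.99), and *Ly6a* higher in each (1.63 and 1.29).

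NK cells were shallow, with 20 genes past the minimum: 7 were at least 2-fold higher in ConA+Veh and 0 lower, against 8.52% and 9.92% of all genes, and 3 were higher with a minimum of 100 UMIs. *Ly6a* was at 122 CPM in Naïve and 1295, 1101 and 896 in the other libraries (3.40, 2.92 to 3.93), and *Isg15* at 87.4, 301, 219 and 266. *Usp18*, whose product removes ISG15 and dampens the receptor, was at 17.5, 63.6, 24.0 and 57.8 CPM. *Ifi27l2a* had 3.21, from 2 UMIs in Naïve. *Ly6a*, *Isg15* and *Usp18* were lowest in Naïve. *Ifi203* had −0.67, and 0.22 per cell, *Parp14* −0.55 and *Dtx3l*, a ubiquitin ligase that pairs with PARP9, −0.11. Per cell all 20 were higher in ConA+Veh, where the median UMIs of an NK-gate cell were 2622 against 1562 in Naïve. The depth shift, which took the summed NK ratio from 0.90 to 1.79, is larger in size than the lowest CPM ratio, −0.67. This per-cell count too follows from depth and has no share of all genes beside it.

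Mononuclear phagocytes had all 42 genes past the minimum, 9 at least 2-fold higher and 1 lower, with 5.78% and 6.25% over all genes. Above 0 were 34 of the 42, against 49.7% of all genes. Per cell 37 were, with median UMIs of 3638 per cell in Naïve and 6143 in ConA+Veh. Depth raises the per-cell count, which has no share of all genes beside it. *Isg15* was at 644, 1665, 1050 and 1353 CPM (1.37), *Ifit1* at 16.1, 58.9, 44.6 and 46.1 (1.87), and *Oasl1*, which encodes an OAS-like protein that curbs *Irf7* translation, at 42.9, 124, 76.7 and 99.8 (1.54). *Rsad2* (viperin), which makes a chain-terminating nucleotide, was at 45.6, 132, 149 and 69.5 CPM. Naïve was lowest for these 4 genes. *Ifitm2* was the 1 gene at least 2-fold lower, at 993 CPM in Naïve and 319 in ConA+Veh, with 483 and 652 in ConA+TCDD and ConA+FICZ, and *Slfn5* and *Mx1* each had −0.87. Composition moved with these values: cells of the gate with at least 2 C1q genes numbered 13, 179, 27 and 170, and in these cells the summed CPM of the list was 22095 in Naïve and 22039 in ConA+Veh, whereas in the other phagocytes it was 15496 and 20908. Naïve phagocytes numbered 66 and those of ConA+TCDD 40.

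**Figure D3:**
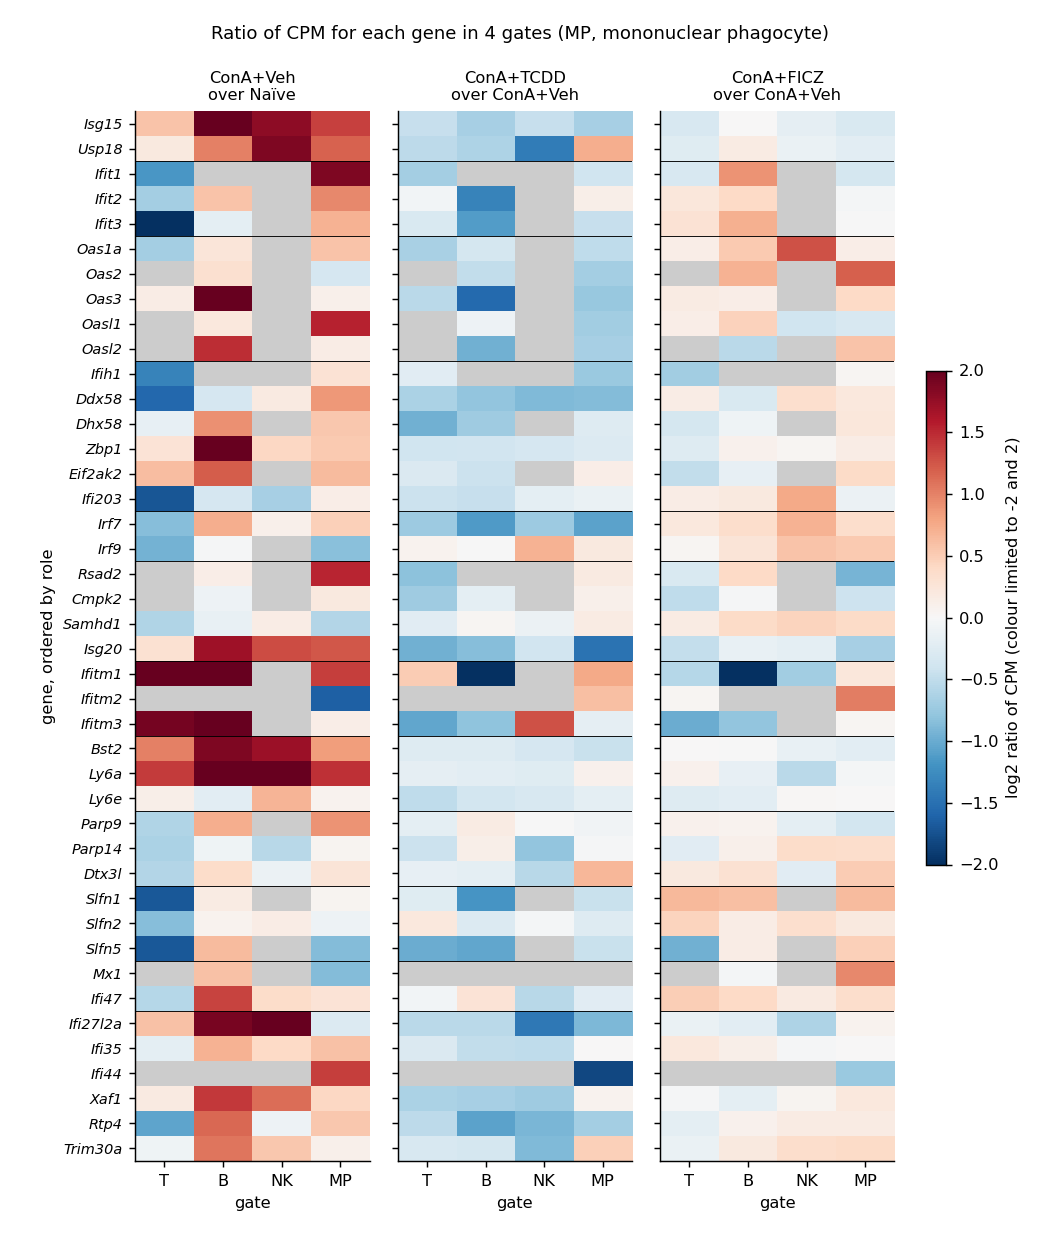
Log2 ratio of CPM for each of the 42 genes (rows) in 4 gates (columns) for the 3 comparisons, colour showing the ratio and blank cells genes under 50 UMIs. In ConA+Veh over Naïve, *Ly6a* is at least 2-fold higher in all 4 gates, and the *Ifit* and Schlafen rows are lower in T cells.

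Across these 4 gates 20 genes had a ratio of ConA+Veh over Naïve in each. *Isg15*, *Usp18*, *Zbp1*, *Isg20*, *Bst2*, *Ly6a* and *Xaf1*, an inducer of apoptosis, were above 0 in all 4, none was below 0 in all, and *Ly6a* was the 1 gene at least 2-fold higher in all 4. No share of all genes on the same side in all 4 gates is given, so that such lists are not set against a background. Endothelial cells had 24 genes past the minimum, 13 at least 2-fold higher and 1 lower, against 11.6% and 9.43% of all genes. Their *Ly6a* was at 1328 CPM in Naïve and 7708 in ConA+Veh (2.54), *Isg15* at 250 and 1334 (2.42), and *Ifitm2* at 3037 and 507 (−2.58). The class held 43, 72, 8 and 43 cells. Its markers moved too: their sum was 10314 CPM in Naïve and 3182 in ConA+Veh, and *Clec4g*, *Stab2* and *Oit3*, genes of liver sinusoidal endothelium, were seen in 83.7%, 88.4% and 79.1% of Naïve cells and in 2.78%, 29.2% and 23.6% of those of ConA+Veh, while *Cdh5* was seen in 74.4% and 84.7%. The part of this shift in the ratios was not tested. In neutrophils 32 genes passed, 0 were 2-fold higher and 1 lower (*Ifitm2*, −1.33), against 11.7% and 11.1%, and *Isg15* was already at 4451 CPM in Naïve and 6669 in ConA+Veh.

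TCDD was given to mice that also received ConA, and the comparison with ConA+Veh asks what it adds. The summed list was lower in ConA+TCDD in the T, B and NK gates, by less than 2-fold. Among 36 T-gate genes, 33 had a ratio below 0, 1 was at least 2-fold lower and 0 higher, with 1.23% lower and 0.458% higher over all genes, and the median was −0.43 against −0.05. Among 36 B-gate genes, 32 were below 0, 8 at least 2-fold lower and 0 higher, against 1.84% and 0.65%, with a median of −0.49 against 0.02, and 5 were lower with a minimum of 100 UMIs. For NK cells 21 of 23 were below 0, 2 at least 2-fold lower and 1 higher, against 1.12% and 0.416%, or 0 and 0 with a minimum of 100 UMIs and 5 lower with one of 20. Phagocytes had 27 of 41 below 0, 3 at least 2-fold lower and 0 higher, against 4.39% and 1.17%, and per cell 22 of the 41 were above 0. By CPM the shares of all genes below 0 were 58.1%, 46.4%, 57.6% and 51.7% in the T, B, NK and phagocyte gates.

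The transcription factor *Irf7* was lower in ConA+TCDD in the T, B, NK and phagocyte gates, though not in endothelial cells, at 382 and 404 CPM over 72 and 8 cells. It was at 87.6 CPM in ConA+Veh and 40.0 in ConA+TCDD in B cells (−1.13), at 39.1 and 23.5 in T cells (−0.73), at 127 and 76.5 in NK cells and at 540 and 257 in phagocytes (−1.07, or −0.47 without cells holding markers of another class). *Irf9*, which encodes the DNA-binding part of the complex on the response element, was close to equal in T and B cells, at 23.2 and 24.3 CPM and at 49.5 and 49.5, and in NK cells had 0.69 with an interval of −0.08 to 1.46. The other 9 genes below 0 in all 4 gates were *Isg15*, *Ddx58*, *Zbp1*, *Ifi203*, *Isg20*, *Bst2*, *Ly6e*, *Ifi27l2a* and *Rtp4*, of 23 with a ratio in each. The share of all genes below 0 in all 4 is not given, so that this count has no background.

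The remaining B-cell genes at least 2-fold lower included RNA-binding and RNA-degrading effectors. *Oas3* had 92 UMIs in ConA+Veh and 14 in ConA+TCDD (−1.55, −2.48 to −0.73), and *Ifit2* and *Ifit3* stood at 10.2 and 13.6 CPM against 4.05 and 6.30 (−1.34 and −1.11). *Slfn1*, *Rtp4* and *Slfn5* had −1.18, −1.07 and −1.04. *Ifitm1* had −2.43, but −0.13 without cells holding markers of another class. *Ifi47*, an interferon-inducible GTPase, was higher, at 180 and 217 CPM (0.27), and *Parp9* and *Parp14* had 0.17 and 0.11 with intervals that span 0.

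In T cells *Ifitm3* had −1.04, or −0.32 without cells holding markers of another class, *Slfn5* −0.998 and *Dhx58* (LGP2) −0.97. *Ifitm1* had 0.51, with 52 of its 66 ConA+TCDD UMIs in 1 cell and −1.02 without the richest cell of each library, and *Slfn2* was at 171 and 198 CPM (0.21). NK cells had *Usp18* at 63.6 and 24.0 CPM (−1.41), *Ifi27l2a* at 64.6 and 24.0 (−1.43, or −0.24 without cells holding markers of another class) and *Rtp4* at −0.91. *Ifitm3* went the other way in NK cells, 37.1 against 90.0 CPM (1.28), with 27 of its 60 UMIs in 1 cell and 0.63 without the richest cell of each library, but the ratio was −0.88 when a cell needed at least 3 markers. In phagocytes *Ifi44* had 68 UMIs against 4 (−1.82), and *Isg20* was at 75.8 and 27.2 CPM (−1.48, or −0.60 without cells holding markers of another class). *Ifitm1* and *Dtx3l* were higher, by 0.76 and 0.66, and the *Usp18* ratio of 0.72 became −0.08 without the richest cell of each library.

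In the T, B, NK and pooled phagocyte gates the summed list in ConA+FICZ was near that in ConA+Veh. Phagocytes with at least 2 C1q genes stood at 22039 CPM in ConA+Veh and 22166 in ConA+FICZ. The other phagocytes, 54 and 43 cells, were higher in ConA+FICZ, at 20908 and 27777 CPM (0.41, 0.36 to 0.46). Granulocyte progenitors, 41 and 14 cells, had 0.42. In T cells 19 of 38 genes were above 0 and 19 below, with 0 at least 2-fold higher and 0 lower where 0.611% and 1.32% of all genes were, and a median of −0.01 in the list and in all genes. B cells had 25 of 39 above 0, 0 at least 2-fold higher and 1 lower, against 1.14% and 1.2%. NK cells had 14 of 25 above 0, 1 at least 2-fold higher and 0 lower, against 0.933% and 2.21%. For phagocytes it was 28 of 42, with 2 at least 2-fold higher and 0 lower, against 2.29% and 1.19%. The shares of all genes above 0 were 48.4%, 53.8%, 46.2% and 61.3% in the T, B, NK and phagocyte gates. The side depends on the scale here: per cell 9 of 25 genes were above 0 in NK cells and 20 of 42 in phagocytes, while T cells had 22 of 38 and B cells 24 of 39. These per-cell counts move with depth and have no share of all genes beside them.

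Summed by role, the IFIT genes had 0.046, 0.65, 0.68 and −0.13 in ConA+FICZ over ConA+Veh in T, B, NK and phagocyte gates, the NK value from 29 and 28 UMIs, and the OAS genes 0.068, 0.24, 0.61 and 0.31. *Ifit1* in B cells was at 2.91, 5.82, 3.15 and 10.9 CPM (0.90, 0.21 to 1.61, against ConA+Veh) and *Ifit3* at 15.7, 13.6, 6.30 and 22.4 (0.71). ConA+FICZ was the highest library for both and ConA+TCDD or Naïve the lowest. *Oas2* had 0.69 in B cells and was at 31.8 and 72.6 CPM in phagocytes (1.19, 0.74 to 1.66), and *Oas1a* was at 23.3 and 56.1 CPM in NK cells (1.27). *Irf7* had 0.21, 0.35, 0.70 and 0.35 in T, B, NK and phagocyte gates, and with *Irf9*, *Oas1a*, *Samhd1*, *Slfn2* and *Ifi47* was above 0 in all 4, of 25 with a ratio in each. This count too has no share of all genes beside it. In T cells *Slfn1* (0.66), *Ifi47* (0.49) and *Slfn2* (0.45) led.

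*Isg20* had a ratio below 0 in ConA+FICZ in all 4 gates, again with no share of all genes beside it. Its NK ratio was −0.20 with an interval of −0.89 to 0.46, and the interval of its B ratio, −0.15, spans 0 too. The IFITM sum had −0.87, −1.0, −0.74 and 0.13 in T, B, NK and phagocyte gates. *Ifitm1* in B cells was at 33.9 and 5.54 CPM (−2.61), and *Ifitm3* had −0.80 in B cells and −0.99 in T cells, or −0.43 and −0.12 without cells holding markers of another class. *Slfn5* and *Ifih1* had −0.97 and −0.70 in T cells, the latter with an interval of −1.63 to 0.17, and *Oasl2* −0.54 in B cells. In NK cells *Ly6a* was at 1295 and 896 CPM (−0.53), and *Ifi27l2a* had −0.62, which became 0.17 without cells holding markers of another class. *Ifitm1* had −0.70 in NK cells (−1.63 to 0.16). Of its UMIs, 28 of 43 in ConA+Veh and 11 of 16 in ConA+FICZ lay in 1 cell, and they are part of the NK IFITM sum. In phagocytes *Rsad2* had −0.92, *Ifi44* −0.74 and *Isg20* −0.66, while *Ifitm2* and *Mx1* had 1.03 and 0.96.

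**Figure D4:**
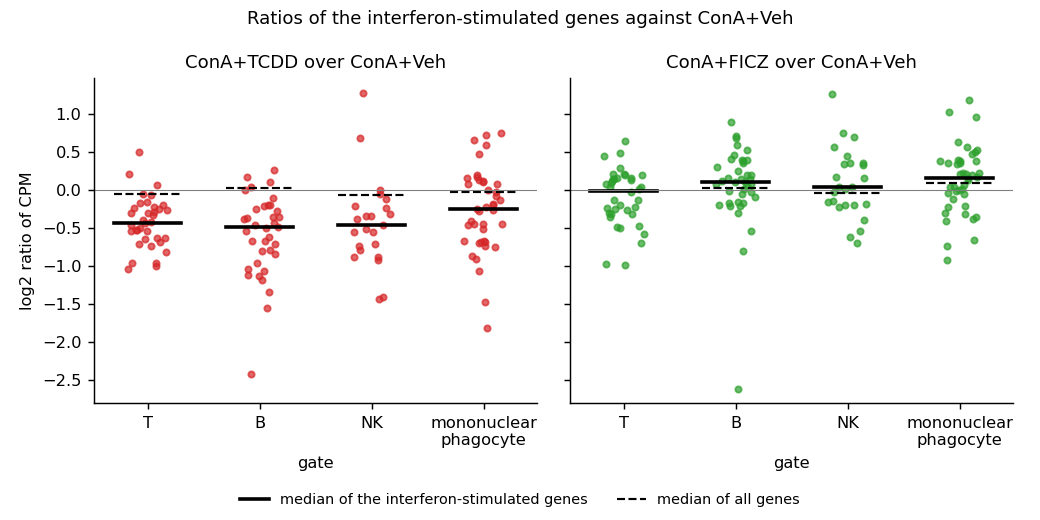
Log2 ratio of CPM of each gene against ConA+Veh for ConA+TCDD and ConA+FICZ by gate, points standing for genes past the minimum. Most T and B points of ConA+TCDD lie below 0 (33 of 36 and 32 of 36), those of ConA+FICZ on either side.

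To see over how many cells the UMIs of the list were spread, each cell was thinned to 1000 UMIs and cells under that depth, at most 72 per gate and library, were left out. At least 3 different genes of the list were seen in 54.5% of B-gate cells in Naïve (51.5 to 57.5), 94.6% in ConA+Veh (92.8 to 96.1), 84.0% in ConA+TCDD (80.0 to 87.5) and 92.3% in ConA+FICZ (90.2 to 94.1). The T-gate shares were 51.7%, 62.9%, 44.1% and 65.3%, and those of NK cells 41.5%, 66.5%, 55.6% and 67.3%. The B share of Naïve lay below the other B shares, and the T share of ConA+TCDD was the lowest of its gate. Without *Ly6e*, *Ly6a* and *Ifi27l2a* the T shares were 25.1%, 25.5%, 14.3% and 28.0%, with Naïve and ConA+Veh alike within their intervals, and the B shares 16.9%, 47.6%, 37.1% and 54.4%, with ConA+FICZ on top. No class that lacks these genes was at hand to give a background, so that the shares count cells with UMIs and not cells shown to express the list, and the part of free RNA was not tested. The red-cell transcript *Hbb-bs* was at 568, 70.6, 162 and 13.1 CPM in the T gate. Phagocytes were at 94.7% or more in every library. Without thinning the B shares were 81.1%, 96.8%, 92.8% and 98.0%, and the T shares 86.9%, 95.7%, 90.5% and 97.5%.

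**Figure D5:**
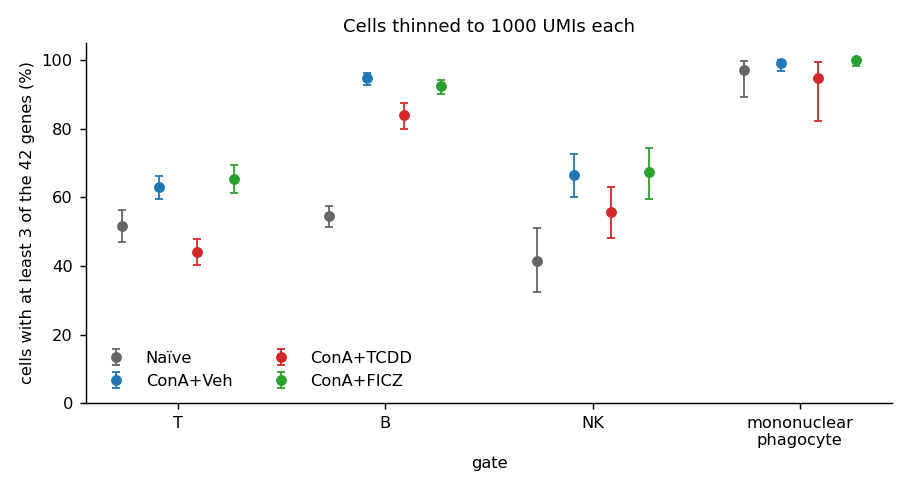
Percent of cells with UMIs of at least 3 of the 42 genes after thinning to 1000 UMIs per cell, by gate and library, with exact binomial 95% intervals. B cells stand at 54.5% in Naïve and between 84.0% and 94.6% after ConA.

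The interferons themselves were near the limit of detection. The 17 type I interferon genes gave 1 UMI in all 4 libraries, of *Ifnb1* in ConA+Veh, and the 2 type III genes gave 0, at a time when list RNA was abundant. The 6 receptor and signal genes showed no 2-fold ratio in ConA+TCDD or ConA+FICZ against ConA+Veh in the T, B, NK and phagocyte gates. There 0.416% to 4.39% of all genes were 2-fold higher or 2-fold lower. In ConA+Veh over Naïve their medians by CPM were −0.68, −0.32, −0.54 and −0.14 in T, B, NK and phagocyte gates. Those of all genes were −0.10, −0.25, −0.03 and −0.004. As mean UMI per cell, each of the receptor and signal medians is above 0, as are those of all genes. By CPM *Ifnar1* was 2-fold lower in B cells (−1.23) and *Tyk2* in NK cells (−1.61) and phagocytes (−1.22). That is 1 gene of 6, 5 and 6 past the minimum, where 16.1%, 9.92% and 6.25% of all genes were 2-fold lower. Genes that lead to interferon production and other regulators had few 2-fold ratios, but few passed the minimum. Of the 10 induction genes, 7 passed in T and B cells, 1 or 2 in NK cells and 5 to 8 in phagocytes. Of 10 induction genes, *Ikbke*, a kinase upstream of interferon, was lower in T cells of ConA+Veh than of Naïve (−2.16), *Mavs*, the adaptor of RIG-I, was lower in T cells (−1.21) and *Tlr7*, a sensor of single-stranded RNA, in phagocytes (−1.46) in ConA+TCDD, and *Tlr7* was higher in B cells of ConA+Veh than of Naïve (1.14). Of 5 other interferon regulatory factors and 4 signal inhibitors, *Irf5* was lower in B cells of ConA+Veh (−1.13) and T cells of ConA+TCDD (−1.20), *Irf1* lower in NK cells of ConA+Veh (−1.0) and *Socs1* higher in phagocytes of ConA+Veh (1.12). Over all genes, 12.3%, 16.1% and 9.92% were 2-fold lower in T, B and NK cells of ConA+Veh. In ConA+TCDD 1.23% were lower in T cells and 4.39% in phagocytes. Higher in ConA+Veh were 6.71% in B cells and 5.78% in phagocytes.

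Genes induced mainly by interferon gamma, 14 in number, differed between gates in ConA+TCDD over ConA+Veh. In B cells 11 passed the minimum, 3 were at least 2-fold higher and 0 lower, against 0.65% and 1.84% of all genes, with a median of 0.82, led by *Cxcl10*, a chemokine (1.47), and *Gbp2*, a guanylate-binding GTPase (1.08). The phagocyte median was 0.45 and the T median 0.06, while that of NK cells, over 6 genes, was −0.53. In ConA+FICZ the B median was 0.92, with 4 of 13 genes at least 2-fold higher, against 1.14% of all genes. *Ifng* was at 97.7, 25.9, 46.3 and 12.9 CPM in T cells and at 567, 273, 381 and 226 in NK cells. By CPM it was highest in Naïve and, among the ConA libraries, highest in ConA+TCDD. Naïve cells were shallower, and as mean UMI per cell ConA+TCDD was the highest library in T and in NK cells.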

How the data were processed

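Liver mononuclear cells of 4 mouse groups were profiled by 5′ single-cell RNA-seq. The authors aligned reads to mm10 and counted UMIs with Cell Ranger 3.0.2, per the labels and the file headers, and the deposited values are raw UMI counts per gene and cell with no normalization. Members and lists were chosen with earlier results of these data known. Cells were gated by markers (78 of 80 listed markers were in the files), and UMIs were summed per gate and library with Python 3.11.15, numpy 2.4.6, scipy 1.17.1 and pandas 2.3.3. Figures used matplotlib 3.10.9. CPM have exact Poisson intervals and ratios exact Clopper-Pearson ones. Single-gene ratios needed 50 UMIs in the 2 libraries together. Described were, per gate and comparison, up to 3 genes with the highest and 3 with the lowest ratio, those 2-fold apart in all 4 gates and the 3 most abundant. The same rule named pathway genes, and others named were chosen after their values were seen. Alternatives are given below, and the ratio code was tested on simulated data. Gene positions are from GENCODE, promoters from RefSeq. No clustering, doublet caller or test was run.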

Additional observations from a re-analysis of the deposited data

Results flagged for a closer look

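For 3 genes the ratio was at least 2-fold higher in 1 and at least 2-fold lower in another of the T, B, NK and phagocyte gates. Other genes had opposite signs with less than 2-fold on 1 side, as *Ifit3* in ConA+Veh over Naïve, with −2.02 in T cells and 0.69 in phagocytes. The difference was not tested, since each condition has 1 library. *Ifit1* in ConA+Veh over Naïve had −1.16 in T cells and 1.87 in mononuclear phagocytes, a difference of −3.03 on the log2 scale. *Rtp4* in the same comparison had −1.05 in T cells and 1.15 in B cells, a difference of −2.20. For *Ifitm3* in ConA+TCDD over ConA+Veh the difference was −2.32, with −1.04 in T cells and 1.28 in NK cells, the latter resting on 60 UMIs of which 27 were in 1 cell. The NK ratio was −0.88 with at least 3 markers, and the T ratio −0.32 without cells holding markers of another class, so that the opposite signs do not hold under every gate. As mean UMI per cell, *Ifit1* and *Rtp4* were higher in ConA+Veh in T cells.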

How the results depend on the processing

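With 1 library per condition, no alternative replaces a replicate, and NK cells, phagocytes of Naïve and ConA+TCDD and genes under 50 UMIs limit what can be read. Of 96 alternative values of the summed ratios 50 stayed within the counting interval, 38 left it with the sign kept or around a main interval that spans 0, and 8 changed a sign whose main interval excludes 0. A further 3, of NK cells in ConA+FICZ, crossed 0 where the main interval spans it. As mean UMI per cell the T ratios were 1.83 (ConA+Veh over Naïve), −0.53 (ConA+TCDD) and 0.14 (ConA+FICZ, sign changed), those of B 2.09, −0.54 and −0.16, of NK 1.79, −0.44 and −0.22 and of phagocytes 0.85, 0.0867 (sign changed) and −0.10 (sign changed). With the mean of each cell's CPM the T ratios were 0.60 (ConA+Veh over Naïve), −0.54 (ConA+TCDD) and 0.0352 (ConA+FICZ, sign changed), the B ratios 0.99, −0.41 and 0.0141 (sign changed), the NK ratio over Naïve 1.13 and the phagocyte ratios 0.44, −0.27 and 0.11. Without the 3 most abundant genes they were −0.32 (sign changed), −0.27 and 0.0662 (sign changed) in T, 0.73, −0.34 and 0.11 (sign changed) in B, 0.53, −0.42 and 0.18 (crossing 0) in NK cells, and 0.10 for ConA+FICZ in phagocytes. With at least 3 markers the ConA+TCDD ratios were −0.31 in T and −0.33 in B, and phagocytes had 0.16 over Naïve. Without cells holding markers of another class the T ratios were −0.36 (ConA+TCDD) and −0.0102 (ConA+FICZ), B 0.85 over Naïve, NK −0.29 (ConA+TCDD) and phagocytes −0.0234 and 0.25 for ConA+TCDD and ConA+FICZ. With ribosomal and mitochondrial genes out of the total T had −0.30 (ConA+TCDD), B 0.96 over Naïve and −0.065 (ConA+FICZ), and phagocytes −0.13 and 0.0394. With at least 100 UMIs, 4 genes were lower in T cells over Naïve, 5 in B cells in ConA+TCDD, 3 higher in NK cells over Naïve, and 0 higher or lower in NK cells in ConA+TCDD and 0 higher in ConA+FICZ. With at least 20 UMIs, 5 were lower in NK cells in ConA+TCDD. With at least 3 markers, 2 were lower in T cells and 1 higher in B cells in ConA+FICZ, and 0 higher in NK cells in ConA+TCDD and in ConA+FICZ. Among the named ratios of single genes whose interval excludes 0, those that changed sign were *Ifi203* (0.88 in B, 0.22 in NK) and *Ly6e* (1.0 in B) as mean UMI per cell over Naïve, *Ifitm3* in NK cells in ConA+TCDD (−0.88 with at least 3 markers) and *Usp18* in phagocytes in ConA+TCDD (−0.0777 without the richest cell). A further 11 alternative values crossed 0 where the main interval spans it or reaches it, among them *Ddx58* in B cells (0.88) and *Parp14* (0.33) and *Dtx3l* (0.77) in NK cells per cell over Naïve, and *Ifi27l2a* in NK cells in ConA+FICZ (0.17 without cells holding markers of another class). The alternatives without shared barcodes, per cell, without the richest cell and, for single genes, without cells holding markers of another class were chosen after seeing the data. Causes were not tested.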

Other observations

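The erythroid gate, of 7, 39, 52 and 8 cells, held *Isg15* at 298 CPM in Naïve, 15295 in ConA+Veh, 10468 in ConA+TCDD and 925 in ConA+FICZ, which made up most of its summed list level in ConA+Veh (25866 CPM). The 8 ConA+FICZ cells carried less erythroid RNA, with *Hbb-bs* at 13298 CPM against 298138 to 445936 in the other libraries and erythroid markers at 944 against 6637 to 15824, so that the 925 CPM is not from a like population. Plasmacytoid dendritic cells, of 21, 21, 16 and 10 cells, had *Ly6a* at 885, 4260, 6005 and 3846 CPM and *Isg15* at 37.9, 662, 994 and 504, both highest in ConA+TCDD. Of the *Isg15* UMIs, 36 of 69 in ConA+TCDD and 20 of 60 in ConA+Veh lay in 1 cell, and Naïve had 3. *Irf7* and *Ly6e* were lower in ConA+TCDD than in ConA+Veh, at 605 against 784 and 3197 against 4547 CPM. The summed level of the 42 genes in these dendritic cells was 11372, 20284, 23820 and 22040 CPM. It was thus higher in ConA+TCDD than in ConA+Veh (0.23, 0.14 to 0.33), unlike in the T, B and NK gates. Without the 3 most abundant genes the summed level was 5534 CPM in Naïve, 9557 in ConA+Veh, 10643 in ConA+TCDD and 10980 in ConA+FICZ. In neutrophils *Ly6a* was at 193, 201, 1381 and 213 CPM, with 163 UMIs over 42 cells in ConA+TCDD, and Naïve held 25 cells. The summed level of the 42 genes in neutrophils was nevertheless lower in ConA+TCDD than in ConA+Veh (−0.33, −0.38 to −0.28).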
